A study of Mus musculus with 17 samples.

Results

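The Il10 locus was described here as the 14 accessible regions, of 66177 in all, whose nearest transcript or nearest transcription start in the deposited annotation was Il10. Il10 was the nearest transcript of 11 of them, and the other 3 lay nearest the transcript of Mapkapk2 but nearest the start of Il10. The gene (Entrez 16153) lies on the plus strand of mouse chromosome 1, at chr1:132916422-132921547 of build mm9. The regions were chosen by annotation, but the gene was selected with the RPPM values of these same libraries in view, so the values of its regions are a description and carry no test.

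Interleukin-10 (IL-10) is a secreted cytokine that restrains inflammatory and antigen-presenting cells. It binds a receptor made of Il10ra and Il10rb chains and signals through the kinases Jak1 and Tyk2 to the transcription factor Stat3. Activated T cells, macrophages and B-lineage cells, including plasma cells, can make it. The gene sits in a cluster with the related cytokines Il19, Il20 and Il24, and in T cells its transcription is known to depend on distal elements on both sides of the gene as well as on its promoter.

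ATAC-seq, in which the transposase Tn5 cuts and tags open chromatin, was run on 3 sorted cell populations of mice. Naive B cells (nB, B220+ Fas- GL7-) came from lymph nodes of unimmunized mice, germinal center B cells (GCB, B220+ Fas+ GL7+ PE+) from lymph nodes of mice immunized with phycoerythrin (PE) 30 days earlier, and bone marrow plasma cells (BMPC, CD138+) from bone marrow, likewise 30 days after immunization. Dnmt3-sufficient controls (C) and Dnmt3-deficient mice (KO) both carried Dnmt3afl/fl and Dnmt3bfl/fl, floxed alleles of the de novo DNA methyltransferases, so that all 6 groups share them, and only KO mice carried a Cre, which acts in the B lineage. The mice were 8 to 12 weeks old at the start. The C groups held 3 nB, 2 GCB and 3 BMPC libraries and the KO groups 2 nB, 4 GCB and 2 BMPC libraries, each nB and BMPC library from 1 mouse and each GCB library from a pool of 2 mice, with 3000 to 5000 sorted cells per library. The third KO BMPC sample was left out by the authors and is not analysed here. All nB libraries were male and all BMPC libraries were female, while GCB pools were of both sexes. Between nB and BMPC, cell type therefore cannot be told apart from sex, tissue or immunization. Between nB and GCB, cell type cannot be told apart from immunization, sorting for PE binding or pooling of mice. Between GCB and BMPC, it cannot be told apart from tissue, sorting for PE binding or pooling.

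Values are reads per region on the RPM scale, with the reads that fell in any region of the library as the total (RPPM). Reads in regions ranged from 4104875 to 6079018 per nB library, from 907959 to 2280954 per GCB library and from 5357687 to 8232313 per BMPC library. A count of 0 allows up to 3 reads, which stood for 0.364 to 3.30 RPPM depending on the library, for counting error only. The Il10 regions held 124 to 225 reads in nB, 235 to 553 in GCB and 1375 to 2852 in BMPC libraries, so nB and GCB values were less precise relative to their size than BMPC values. In bulk libraries, fewer cells with a region open and less opening per cell cannot be told apart. The sorted populations were checked by the region nearest the start of marker genes. Of the germinal center markers, S1pr2, a receptor that holds cells in the follicle, measured 14.4 RPPM in nB C, 26.2 RPPM in GCB C and 39.3 RPPM in BMPC C, and Bcl6, the germinal center repressor, measured 53.8, 20.01 and 29.96 RPPM, so neither was highest in GCB. Of 5 plasma cell markers, 1 was called higher and none lower in BMPC C than in nB C. That one, Tnfrsf17, the plasma cell receptor BCMA, measured 18.4 to 22.6 RPPM in the 3 BMPC C libraries against 0.392 RPPM in nB C, while Irf4, a factor of plasma cell differentiation, measured 44.1 RPPM in BMPC C against 57.4 RPPM in nB C. Of the naive B cell markers, Pax5, the B cell identity factor, measured 40.3 RPPM in nB C and 2.84 RPPM in BMPC C.

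Of the 14 regions, 6 lay upstream of the Il10 start, 4 inside the gene and 4 downstream of it, spread over 66304 bp. None covered the start itself and none was annotated as a promoter. The upstream regions were centred 32.2, 26.0, 20.1, 16.3, 9.2 and 4.3 kb from the start. Inside the gene, which has 5 exons, the region 1.1 kb into it covered the end of intron 1, exon 2, intron 2 and the beginning of exon 3, the small regions 1.8 and 2.2 kb in lay within intron 3, and the region 2.9 kb in covered exon 4 with parts of introns 3 and 4. The downstream regions were centred 18.7, 27, 30.0 and 33.6 kb after the start, and the last 3 of these are the ones nearest the Mapkapk2 transcript. Widths ran from 230 to 1269 bp, with a median of 838 bp against 510 bp over all regions.

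Stretches of 5 of these regions are shown as examples from the comparison of BMPC with GCB, and not all regions that differed are shown. Those 20.1 kb and 9.2 kb upstream and 2.9 kb into the gene read higher in BMPC. Those 1.8 kb into the gene and 27 kb downstream read higher in GCB. Each stretch is the plus strand of build mm9 (NCBIM37), 5′ to 3′, at most the central 300 bases, and capitals mark matches to letters searched for known factors of B-lineage cells (E2A, PU.1, IRF, Oct-2, AP-1, MAF). No match to any letters searched was found in the region 4.3 kb upstream, which also read higher in BMPC and is not shown.
20.1 kb upstream, chr1:132896200-132896499, E2A: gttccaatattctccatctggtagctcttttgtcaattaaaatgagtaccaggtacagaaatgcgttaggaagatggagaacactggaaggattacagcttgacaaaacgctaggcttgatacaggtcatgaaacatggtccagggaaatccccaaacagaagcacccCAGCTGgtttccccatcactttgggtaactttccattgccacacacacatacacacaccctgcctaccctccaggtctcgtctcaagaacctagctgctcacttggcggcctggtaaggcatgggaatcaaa
9.2 kb upstream, chr1:132907087-132907386, MAF and AP-1: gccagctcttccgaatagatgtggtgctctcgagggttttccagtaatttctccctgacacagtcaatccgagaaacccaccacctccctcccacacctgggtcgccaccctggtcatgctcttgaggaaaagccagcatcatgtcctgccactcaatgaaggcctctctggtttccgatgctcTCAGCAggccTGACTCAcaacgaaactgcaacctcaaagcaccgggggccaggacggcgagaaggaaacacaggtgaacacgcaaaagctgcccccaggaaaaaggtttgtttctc
1.8 kb into the gene, chr1:132918157-132918386, AP-1: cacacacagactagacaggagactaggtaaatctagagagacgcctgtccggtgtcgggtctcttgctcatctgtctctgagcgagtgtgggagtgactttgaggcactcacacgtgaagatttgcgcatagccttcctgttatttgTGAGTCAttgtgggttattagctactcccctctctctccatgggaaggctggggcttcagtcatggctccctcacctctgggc
2.9 kb into the gene, chr1:132919163-132919462, IRF: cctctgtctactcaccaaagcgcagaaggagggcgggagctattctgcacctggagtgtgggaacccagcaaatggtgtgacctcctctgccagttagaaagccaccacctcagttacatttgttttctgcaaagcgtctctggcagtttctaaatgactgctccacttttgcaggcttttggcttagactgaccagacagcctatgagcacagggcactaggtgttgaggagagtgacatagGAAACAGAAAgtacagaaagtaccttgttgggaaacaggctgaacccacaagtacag
27 kb downstream, chr1:132943226-132943525, Oct-2, PU.1 and E2A: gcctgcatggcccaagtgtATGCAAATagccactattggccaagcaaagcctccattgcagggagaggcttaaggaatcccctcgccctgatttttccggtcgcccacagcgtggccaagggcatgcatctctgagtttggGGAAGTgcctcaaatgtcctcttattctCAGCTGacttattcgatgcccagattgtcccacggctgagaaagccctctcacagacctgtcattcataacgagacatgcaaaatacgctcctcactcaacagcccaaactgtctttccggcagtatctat

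In these letters the octamer ATGCAAAT, bound by Oct-2, and the E2A letters CAGCTG stand in the stretch 27 kb downstream, and the AP-1 letters TGACTCA stand in the stretches 9.2 kb upstream and, on the other strand, 1.8 kb into the gene. The first of the capital runs 9.2 kb upstream is the MAF core TGCTGA read on the other strand. Over the whole regions, the octamer was found in 2 of 14, those 27 and 30.0 kb downstream, where 7.49% and 9.03% of windows of the same widths centred on all regions held it. AP-1 letters were found in 6 of 14 regions with 9 matches in all, and windows of the same widths held them in 5.1% to 20.5% of cases, which sums to 1.8 regions over the 14 widths. E2A letters were in 8 regions (5.1 by the summed share), MAF cores in 7 (6.0), PU.1 letters GGAAGT in 5 (6.6), the STAT letters TTCNNNGAA in 3 (2.8) and the IRF pattern, 2 GAAA blocks with any 2 bases between, in 1 (1.9). The ETS-IRF composite, GGAA and GAAA with any 2 bases between (1.4 by the summed share), the Nfil3 letters TTACGTAA and the Blimp-1 letters, the IRF pattern with G and T between its blocks, were in none. Both strands were searched. CAGCTG and TTACGTAA read the same on both strands, and matches overlapped for PU.1 and STAT 16.3 kb upstream, AP-1 and MAF 1.1 kb into the gene and E2A and AP-1 18.7 kb downstream. The G and C content of the regions had a median of 48.6% against 48.9% over all regions, and CpG dinucleotides, the targets of Dnmt3 enzymes, had a median of 15.2 per kb against 14.6, with 150 CpGs in all.

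The first comparison asked how the locus read in GCB and BMPC against nB in the Dnmt3-sufficient mice. Summed over the 14 regions, the signal was 36.6 RPPM ± 6.11 (SD, n = 3) in nB C, 232 ± 15.98 (n = 2) in GCB C and 266 ± 17.6 (n = 3) in BMPC C. The regions 16.3 kb upstream and 27 and 30.0 kb downstream read 15.1- to 19.8-fold higher in GCB C than in nB C. The regions 16.3 and 26.0 kb upstream and 30.0 kb downstream read 20.9-, 16.9- and 14.6-fold higher in BMPC C than in nB C. Those 2.9 kb into the gene and 9.2 kb upstream read 13.4-fold and 13.1-fold higher, and the region over exon 2 only 1.71-fold higher.

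**Figure D1:**
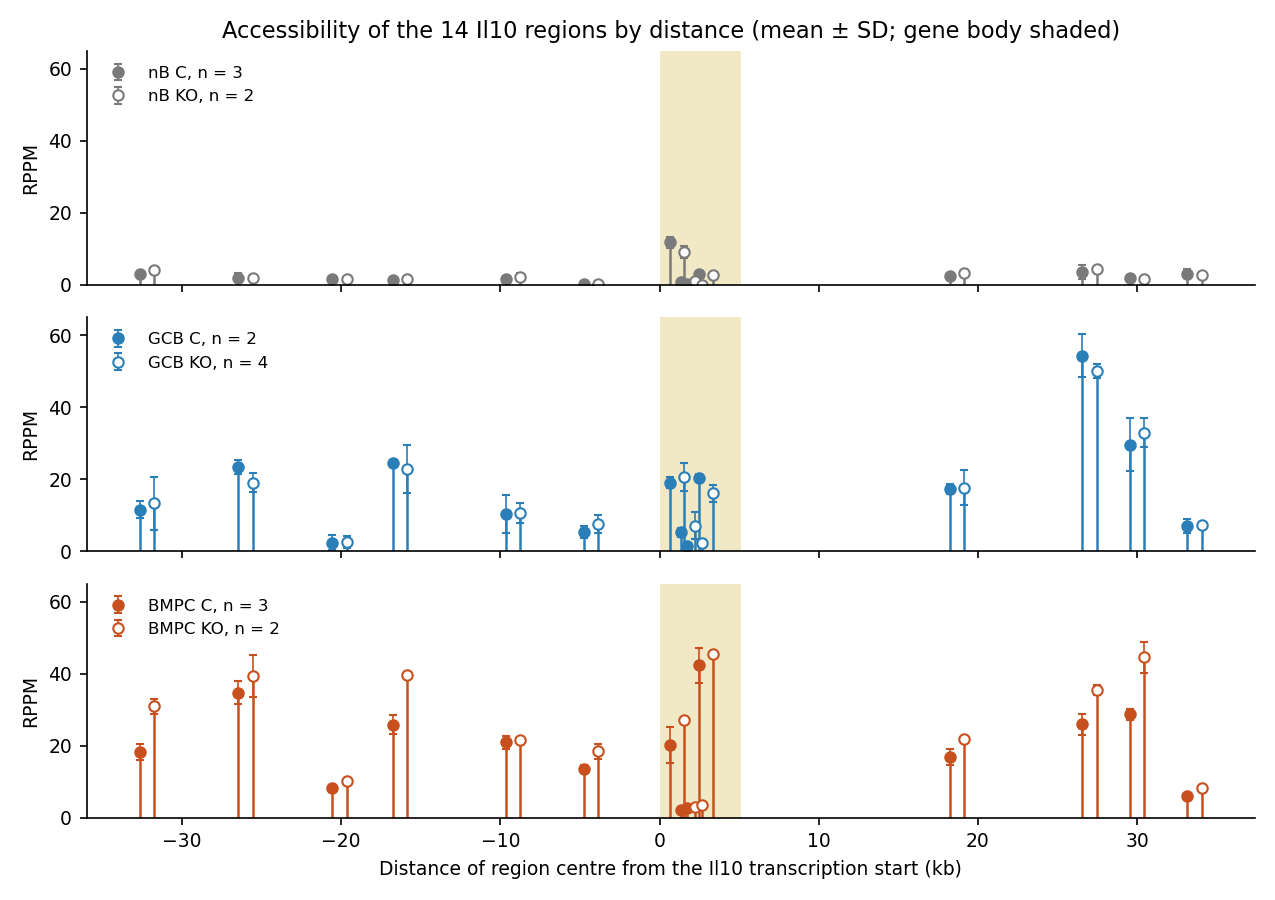
Accessibility across the Il10 locus in nB, GCB and BMPC, with the distance of each region's centre from the Il10 start in kb on the x axis and RPPM on the y axis; points are group means, bars 1 SD, filled circles C (drawn slightly to the left) and open circles KO, and the gene body is shaded. In nB the region 1.1 kb into the gene, at 11.8 RPPM in C, stands above the rest, while in GCB the highest region lies 27 kb downstream and in BMPC C it lies 2.9 kb into the gene.

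The region 16.3 kb upstream (chr1:132899657-132900505) was among the most contrasted. It measured 1.46, 1.13 and 1.12 RPPM in nB C, 25.07 and 23.89 RPPM in GCB C, and 28.35, 22.99 and 26.31 RPPM in BMPC C. Every GCB and BMPC library was far above every nB library, and GCB and BMPC overlapped. On the log2(RPPM + 1) scale, which understates changes of low values, it was 3.51 (SE 0.23) higher in GCB C and 3.59 (SE 0.21) higher in BMPC C than in nB C, a 19.8-fold and a 20.9-fold ratio of means.

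The region 26.0 kb upstream (chr1:132889945-132890979) measured 0.73, 2.64 and 2.79 RPPM in nB C, 21.99 and 24.83 RPPM in GCB C and 32.51, 38.32 and 33.32 RPPM in BMPC C. All 3 groups were apart, in the order nB, GCB, BMPC. The log2 difference from nB C was 3.08 (SE 0.26) in GCB C and 3.63 (SE 0.23) in BMPC C. The region 30.0 kb downstream (chr1:132945775-132947043) measured 1.95, 1.88 and 2.05 RPPM in nB C, 34.75 and 24.36 RPPM in GCB C and 29.00, 30.11 and 26.94 RPPM in BMPC C. Here GCB and BMPC overlapped, and both lay well above nB, by 3.35 (SE 0.21) and 3.32 (SE 0.19) on the log2 scale.

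The region 18.7 kb downstream (chr1:132934632-132935567) rose to a like level in both cell types, from 1.86 to 2.83 RPPM in nB C to 16.27 and 18.27 RPPM in GCB C and 14.78 to 19.25 RPPM in BMPC C. The one 32.2 kb upstream measured 1.95 to 3.58 RPPM in nB C, 9.84 and 13.19 RPPM in GCB C and 15.69 to 20.03 RPPM in BMPC C, with no overlap between the 3 groups.

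The region 4.3 kb upstream (chr1:132911851-132912479), the one nearest the start on that side, was close to empty in nB. It read 0.24, 0 and 0.19 RPPM in nB C, 6.60 and 4.22 RPPM in GCB C and 13.79, 12.22 and 14.64 RPPM in BMPC C. The nB values were at or under what 3 reads give, so no fold is given; GCB libraries lay above all of them and BMPC libraries above all GCB C libraries. The small region 2.2 kb into the gene was likewise at 0 to 0.57 RPPM in nB C, and measured 0.88 and 1.87 RPPM in GCB C, from 2 and 4 reads, and 2.02 to 3.65 RPPM in BMPC C.

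The region over exon 2 (chr1:132917060-132917926) differed from the others in nB. It measured 9.99, 12.43 and 13.03 RPPM in nB C, 18.03 and 20.14 RPPM in GCB C and 24.32, 14.60 and 21.80 RPPM in BMPC C. This was the most open region of the locus in nB, also per length, at 13.6 RPPM per kb where the lowest region had 0.228 RPPM per kb. Its log2 differences from nB C were 0.65 (95% interval 0.21 to 1.09) in GCB C and 0.71 (SE 0.19) in BMPC C. The region 33.6 kb downstream also rose less than most in C. It measured 3.17 RPPM ± 1.35 (SD, n = 3) in nB C. It measured 7.07 ± 1.92 (n = 2) in GCB C and 6.02 ± 0.357 (n = 3) in BMPC C. The ratios of means over nB C were 2.23-fold and 1.9-fold. In KO the region over exon 2 read 2.27-fold higher in GCB and 2.98-fold higher in BMPC than in nB. The region 33.6 kb downstream read 2.79-fold and 3.15-fold higher there. All of these KO differences were called by the rule given below.

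A region was called where the limma adjusted p over all 66177 regions was at most 0.01 and the log2 difference at least 1. By that rule 10 of the 14 regions were called higher in GCB C than in nB C and none lower, against 14.2% of all regions higher and 8.47% lower. The regions not called were those 20.1 kb upstream, 1.1 and 2.2 kb into the gene and 33.6 kb downstream. In BMPC C against nB C 11 were called higher and none lower, against 18% and 20.1% of all regions, and those not called lay 1.1 and 1.8 kb into the gene and 33.6 kb downstream. The median log2 difference over the 14 regions was 2.21 for GCB C and 2.54 for BMPC C, where the medians over all regions were 0.05 and 0.03.

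In the KO mice the same comparisons called 13 of 14 higher in GCB than in nB (18.4% of all regions higher and 7.84% lower), the exception lying 20.1 kb upstream, and 13 of 14 higher in BMPC than in nB (18.4% and 16.9%), the exception lying 1.8 kb into the gene. Over both genotypes, every BMPC library lay above every nB library at 14 of 14 regions, where 29.5% of all regions did so, and every GCB library above every nB library at 13 of 14, where 21.1% did so. Among male libraries alone, the 1 male GCB C pool lay above all 3 nB C libraries at 13 of 14 regions (40.4% of all regions), the exception again 20.1 kb upstream, and the 1 male GCB KO pool lay above both nB KO libraries at 14 of 14 (48.7% of all). No comparison within 1 sex was possible for BMPC and nB.

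**Figure D2:**
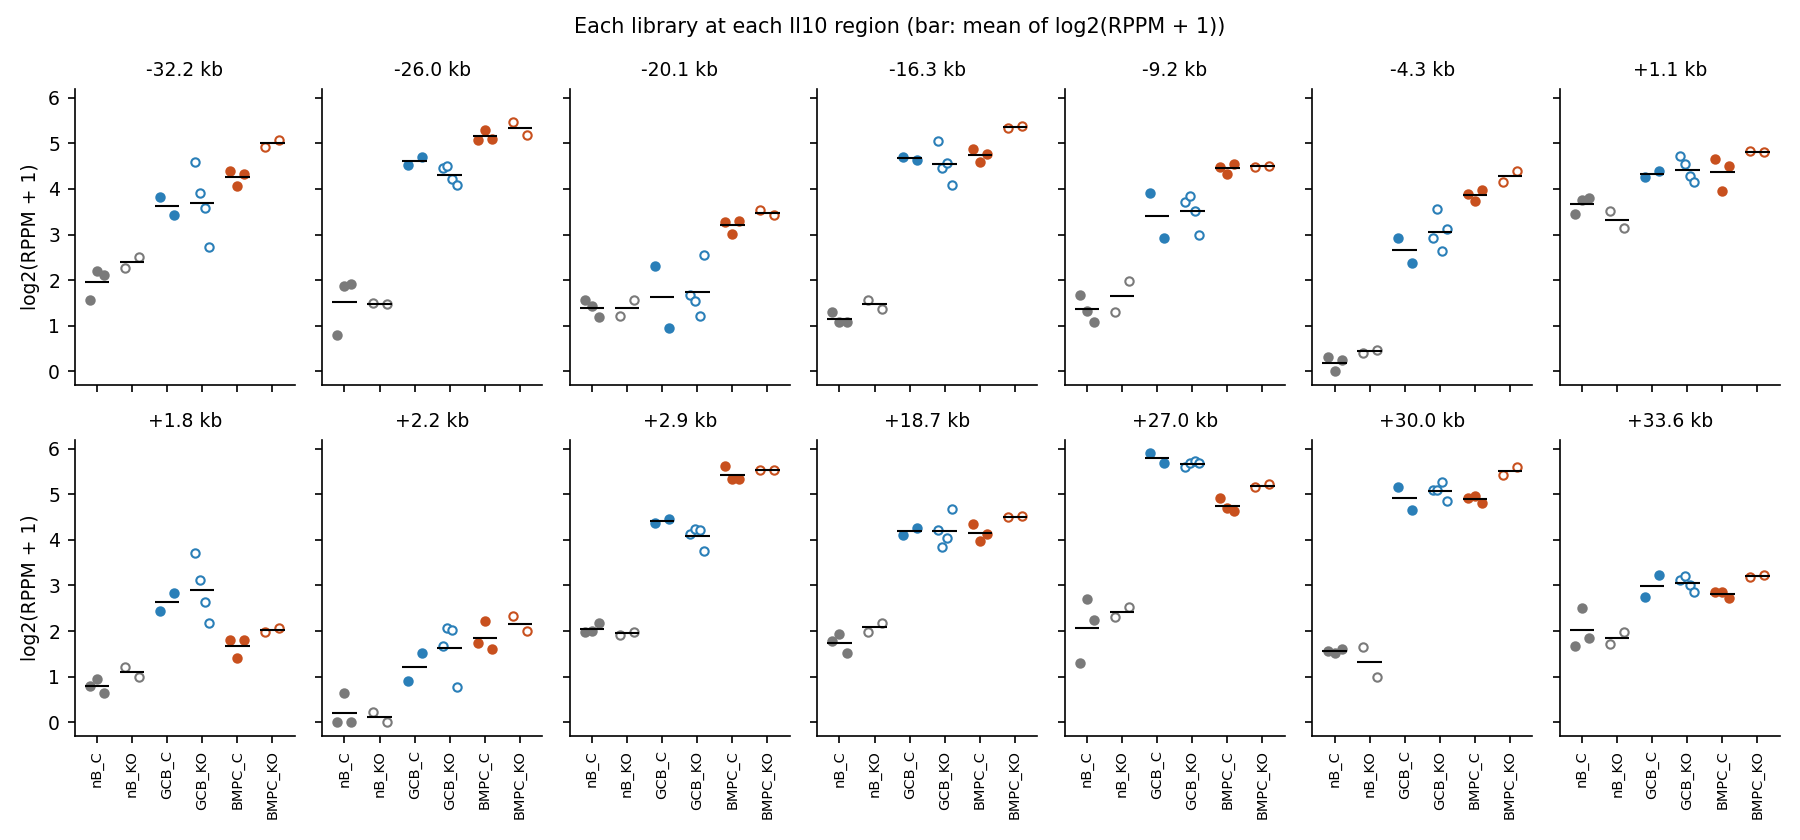
Each library's log2(RPPM + 1) at the 14 Il10 regions, 1 panel per region, for nB, GCB and BMPC; filled circles are C, open circles KO, and short bars are group means. All BMPC points lie above all nB points in 14 of 14 panels, and GCB points lie above nB points in 13, the panel 20.1 kb upstream being the exception.

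The comparison of BMPC with GCB asked whether the regions differed between plasma cells and the germinal center cells. Regions differed in both directions. In C, 4 regions were called higher in BMPC, 20.1, 9.2 and 4.3 kb upstream and 2.9 kb into the gene, and 1 lower, 27 kb downstream, against 11.3% of all regions called higher and 19.1% lower. The median log2 difference was 0.31, against -0.06 over all regions.

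The region 27 kb downstream (chr1:132942917-132943834), which holds the octamer letters printed above, was the strongest region of the locus in GCB. It measured 1.46, 5.46 and 3.72 RPPM in nB C, 58.50 and 50.12 RPPM in GCB C and 29.13, 25.00 and 23.67 RPPM in BMPC C. In KO it measured 3.95 and 4.72 RPPM in nB, 47.36, 50.28, 52.17 and 50.34 RPPM in GCB and 34.50 and 36.40 RPPM in BMPC. In both genotypes all GCB libraries were highest, BMPC libraries lay between and nB libraries were lowest, with no overlap. The log2 difference of BMPC from GCB was -1.04 (SE 0.24) in C, a ratio of means of 0.48, and -0.49 (SE 0.23) in KO, where it was not called.

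The region 1.8 kb into the gene (chr1:132918157-132918386), printed whole above, had the same order at lower values. It measured 0.73, 0.94 and 0.56 RPPM in nB C, 4.40 and 6.09 RPPM in GCB C and 2.47, 1.64 and 2.49 RPPM in BMPC C. Its KO values were 1.32 and 0.98 RPPM in nB, 12.12, 7.64, 5.26 and 3.50 RPPM in GCB and 2.92 and 3.17 RPPM in BMPC. Every GCB library lay above every BMPC library, though on 5 to 13 reads per pool. The difference of BMPC from GCB was -0.96 (95% interval -1.71 to -0.21) in C and -0.89 (SE 0.35) in KO. Both missed the fold limit and the limit on adjusted p, and were not called.

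The region 2.9 kb into the gene (chr1:132918785-132919841), just past the small regions of intron 3, had the opposite order. It measured 2.92, 3.01 and 3.54 RPPM in nB C, 19.79 and 21.08 RPPM in GCB C and 47.86, 39.59 and 39.39 RPPM in BMPC C. In KO it measured 2.80 and 2.95 RPPM in nB, 16.52, 17.82, 17.54 and 12.58 RPPM in GCB and 45.55 and 45.17 RPPM in BMPC. All BMPC libraries lay above all GCB libraries and those above all nB libraries. The log2 difference of BMPC from GCB was 1.01 (SE 0.20) in C, a 2.07-fold ratio of means, and 1.45 (SE 0.19) in KO, called in both.

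The region 20.1 kb upstream (chr1:132896110-132896590) was the 1 region of the locus whose GCB and nB libraries overlapped. It measured 1.95, 1.70 and 1.30 RPPM in nB C, 3.96 and 0.94 RPPM in GCB C and 8.71, 7.12 and 8.88 RPPM in BMPC C. Its KO values were 1.32 and 1.97 RPPM in nB, 2.203, 1.91, 1.32 and 4.89 RPPM in GCB and 10.57 and 9.71 RPPM in BMPC. The GCB values rest on 2 to 9 reads per pool. GCB and nB libraries overlapped, with a log2 difference of 0.23 (95% interval -0.55 to 1.01) in C, while all BMPC libraries lay above both. BMPC exceeded GCB by 1.57 (SE 0.38) in C and 1.73 (SE 0.36) in KO, called in both.

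The region 9.2 kb upstream (chr1:132906824-132907650) measured 14.07 and 6.56 RPPM in GCB C and 21.46, 18.98 and 22.42 RPPM in BMPC C, and in KO 12.12, 13.37, 10.52 and 6.99 RPPM in GCB and 21.38 and 21.65 RPPM in BMPC. BMPC libraries were above all GCB libraries, by 1.04 (SE 0.30) in C and 0.97 (SE 0.28) in KO on the log2 scale, of which only the first passed the fold limit. The region 4.3 kb upstream was 1.21 higher in BMPC in each genotype (SE 0.30 in C and 0.29 in KO) and called in both.

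Among the remaining regions, 4 had nearly the same level in BMPC C and GCB C, with log2 differences of 0.07 (95% interval -0.40 to 0.54) 16.3 kb upstream, 0.05 (-0.39 to 0.49) 1.1 kb into the gene, -0.04 (-0.53 to 0.45) 18.7 kb downstream and -0.02 (-0.46 to 0.41) 30.0 kb downstream. In KO 5 regions were called higher in BMPC than in GCB and none lower, against 12.1% and 19.9% of all regions; the 5 were those 32.2, 26.0, 20.1 and 4.3 kb upstream and 2.9 kb into the gene. Whether the BMPC to GCB difference itself differed by genotype is given with the interactions.

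**Figure D3:**
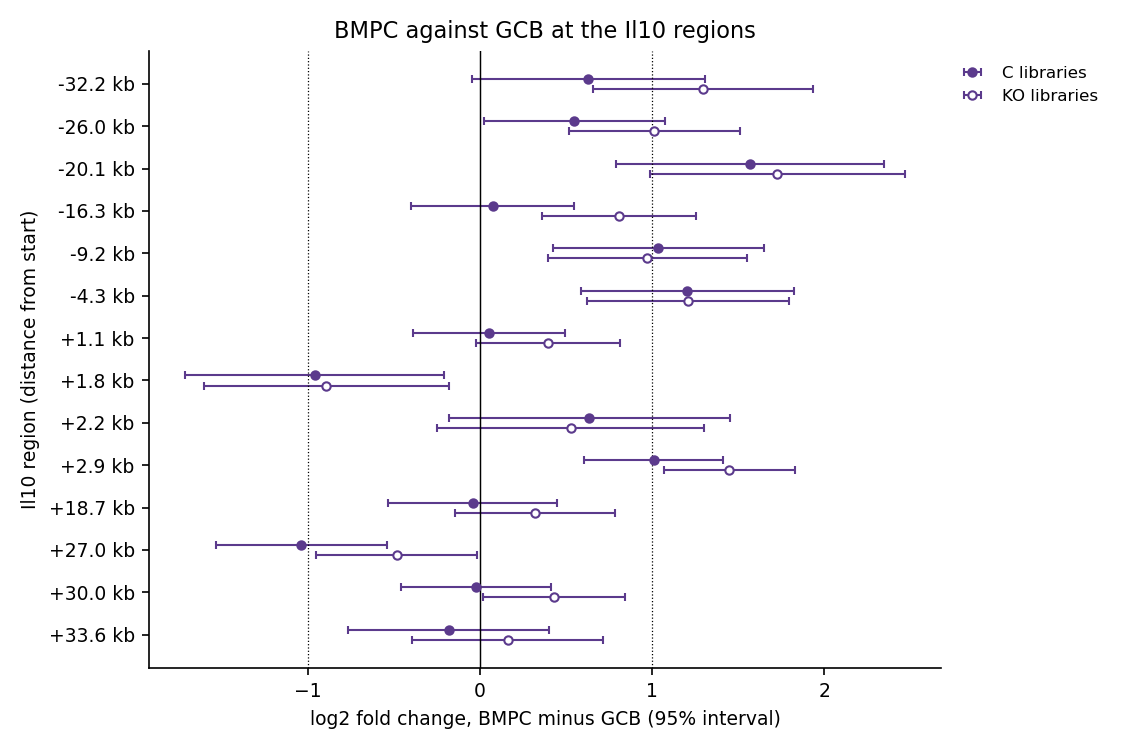
Difference between BMPC and GCB in log2(RPPM + 1) at each Il10 region, ordered by position, with 95% intervals; filled circles are C, open circles KO, and dotted lines mark a log2 difference of 1 in each direction. The regions 1.8 kb into the gene and 27 kb downstream lie below 0 in both genotypes, and those 20.1, 9.2 and 4.3 kb upstream and 2.9 kb into the gene lie near or above 1.

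Over both genotypes together, BMPC libraries lay above all GCB libraries at 5 regions (20.5% of all regions did so), 26.0, 20.1, 9.2 and 4.3 kb upstream and 2.9 kb into the gene, and below all of them at 2 (23.2% of all regions), 1.8 kb into the gene and 27 kb downstream. Among female libraries alone, BMPC C lay above the 1 female GCB C pool at 7 regions (38.3% of all) and below it at 3 (46.9%), those 2 and the one 30.0 kb downstream. BMPC KO lay above all 3 female GCB KO pools at 10 regions (30.9% of all) and below them at the same 2 regions (34.5%). The count called in C rested on single libraries: leaving out 1 library gave 2 to 5 called regions, with 3 without GCB C replicate 1, 2 without GCB C replicate 2, and 3 without BMPC C replicate 1 or 3.

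In order of level, per length so that regions can be compared, the signal in GCB C ran from 4.92 RPPM per kb 2.2 kb into the gene to 59.2 RPPM per kb 27 kb downstream. In BMPC C it ran from 9.54 RPPM per kb at that same small region to 40.0 RPPM per kb 2.9 kb into the gene, and in BMPC KO from 12.5 to 46.9 RPPM per kb, the highest there lying 16.3 kb upstream. The regions thus held different ranks in the 3 cell types. Across the 16 libraries, Pearson's r between pairs of the 14 regions on the log2 scale had a median of 0.876 over 91 pairs, with 64 pairs above 0.8. The pair most alike lay 16.3 kb upstream and 30.0 kb downstream (0.985), and the pair least alike 20.1 kb upstream and 1.8 kb into the gene (0.011). These are descriptions over libraries that share the differences of cell type, depth and tissue.

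The comparison of KO with C asked how the locus differed between Dnmt3-deficient and Dnmt3-sufficient cells. As only KO mice carried a Cre, loss of Dnmt3a and Dnmt3b cannot be told apart from carrying it. Summed over the 14 regions the signal was 37.0 RPPM ± 0.502 (SD, n = 2) in nB KO, 231 ± 24.7 (n = 4) in GCB KO and 349 ± 4.08 (n = 2) in BMPC KO, against 36.6, 232 and 266 RPPM in C. Every region had a higher mean in BMPC KO than in BMPC C, from a log2 difference of 0.04 to one of 0.73, but none was called. In order, the summed level was lowest in nB, and GCB KO libraries (199.9 to 258.8 RPPM) overlapped those of BMPC C (250.9 to 285.5 RPPM), whereas both BMPC KO libraries (346.4 and 352.2 RPPM) lay above all others.

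The region 32.2 kb upstream (chr1:132883843-132884527) had the largest log2 difference of the 14 in BMPC. It measured 20.03, 15.69 and 19.15 RPPM in BMPC C and 29.40 and 32.48 RPPM in BMPC KO. Both KO libraries lay above all C libraries, with a 1.69-fold ratio of means and a log2 difference of 0.73 (95% interval 0.06 to 1.41). In GCB the same region read 13.19 and 9.84 RPPM in C and 23.13, 14.0025, 10.96 and 5.59 RPPM in KO, which overlapped.

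The region 30.0 kb downstream measured 41.54 and 47.60 RPPM in BMPC KO against 29.00, 30.11 and 26.94 RPPM in BMPC C, a log2 difference of 0.62 (95% interval 0.18 to 1.05). The region 16.3 kb upstream measured 39.24 and 40.32 RPPM in BMPC KO against 28.35, 22.99 and 26.31 RPPM, a difference of 0.61 (0.13 to 1.08). In each of these the KO libraries lay above all C libraries, and together with the region 32.2 kb upstream they are the 3 whose intervals did not reach 0. The region 2.9 kb into the gene, the highest in BMPC C, had 45.55 and 45.17 RPPM in KO, within the range of the C libraries, a difference of 0.10 (95% interval -0.30 to 0.51). At 9.2 kb upstream the difference was 0.04 (-0.57 to 0.65).

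None of the 14 regions was called between KO and C by limma in nB, GCB or BMPC, where 0%, 0.0317% and 0.104% of all regions were. With no adjustment of p and a limit of 0.05, 0, 0 and 3 of the 14 regions passed, against 1107, 7801 and 6320 of all 66177. The 3 in BMPC became 4 with DESeq2, 7 with either edgeR test or with a fit of the 2 groups alone, 5 with a pseudocount of 5 RPPM or without nB C replicate 1, 2 with a pseudocount of 0.1 RPPM or quantile normalization, 1 without BMPC C replicate 2 or BMPC KO replicate 1, and 0 without BMPC KO replicate 2. On recovered reads, DESeq2 and both tests of edgeR (quasi-likelihood, likelihood ratio) called 0 of the 14 as well in each cell type. In BMPC these tools called more of all 66177 regions than limma's 69, namely 494 by DESeq2, 1294 by the quasi-likelihood and 1877 by the likelihood ratio test; in nB they called 1, 4 and 9, and in GCB 0, 1 and 17. In nB the differences ran from -0.34 to 0.43 with 7 of 14 positive, and their 95% intervals reached from -0.92 to 1.11. In GCB they ran from -0.34 to 0.42 with 10 positive and intervals from -0.79 to 1.19. The median over the 14 regions was 0.13 in nB, 0.08 in GCB and 0.38 in BMPC, against medians of -0.01, 0.03 and 0.03 over all regions. The 14 of 14 in BMPC became 13 under TMM or DESeq2 scaling, where the region 9.2 kb upstream turned to a lower value in KO.

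In BMPC both KO libraries lay above all 3 C libraries at 10 of 14 regions, where 20% of all regions did so. In nB both lay above at 5 (9.38% of all regions), and in GCB at none (7.47%), while at 2 regions, 26.0 kb upstream and 2.9 kb into the gene, all GCB KO pools lay below both C pools (5.52%). In that last region the 4 KO pools read 12.58 to 17.82 RPPM and the C pools 19.79 and 21.08 RPPM. The BMPC KO libraries also had lower summed signal at the 4 measured T cell marker genes (51.6 to 52.3 RPPM, against 68.3 to 74.6 in BMPC C), and the part of this in the Il10 values was not tested.

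**Figure D4:**
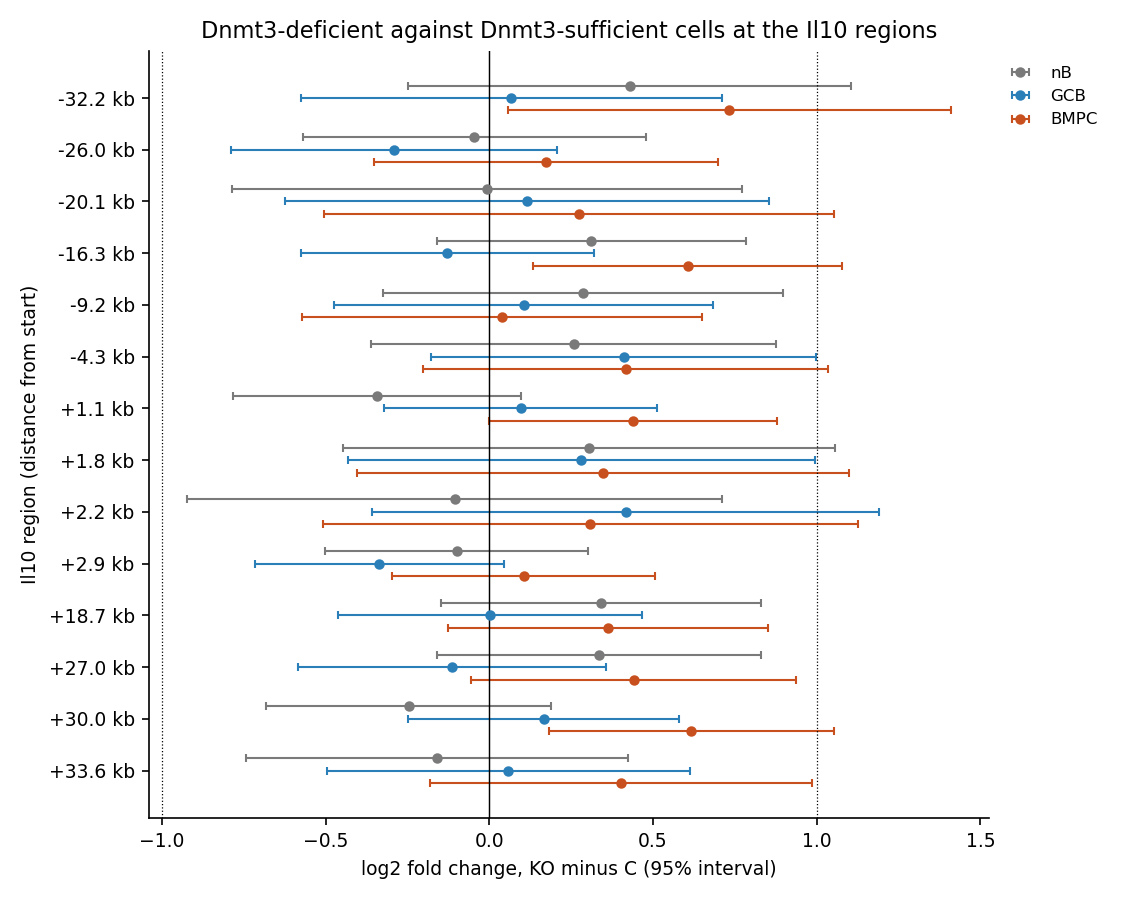
Difference between KO and C in log2(RPPM + 1) at each Il10 region in nB, GCB and BMPC, with 95% intervals and dotted lines at a difference of 1 in each direction. Points scatter around 0 in nB and GCB, while in BMPC all 14 points lie above 0, between 0.04 and 0.73, with 3 intervals that do not reach 0.

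The genotype difference was compared between cell types by interaction terms in the same fit. None of the 14 regions was called in any of the 3 interactions by limma, edgeR or DESeq2, where limma called 0% of all regions. For BMPC against nB, DESeq2 called 28 of all regions, the quasi-likelihood test 64 and the likelihood ratio test 245; for BMPC against GCB they called 19, 21 and 86, and for GCB against nB 0, 0 and 3. The difference between KO and C was larger in BMPC than in nB by 0.78 (SE 0.30) 1.1 kb into the gene and by 0.86 (SE 0.30) 30.0 kb downstream, and larger in BMPC than in GCB by 0.73 (SE 0.32) 16.3 kb upstream. These 3 were the ones whose 95% intervals lay above 0. At an unadjusted p under 0.05, 2 of 14 passed for BMPC against nB (3470 of all regions), 1 for BMPC against GCB (5509) and 0 for GCB against nB (4107).

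Around the locus, 48 regions within 250 kb of the Il10 start belong to other genes. In C, 5 were called higher and 6 lower in GCB than in nB, 5 higher and 11 lower in BMPC than in nB, and 5 higher and 11 lower in BMPC than in GCB, by limma, where the shares of all regions higher and lower were 14.2% and 8.47%, 18% and 20.1%, and 11.3% and 19.1%. The region nearest the start of Fcmr, which encodes the IgM Fc receptor, fell from 39.3 RPPM ± 3.14 (SD, n = 3) in nB C to 4.33 RPPM in BMPC C, a log2 difference of -2.92. At the start of Pigr, which carries IgA and IgM across epithelia, the signal rose from 2.14 RPPM in nB C to 10.9 RPPM in BMPC C (1.92). Among the sister cytokines the region nearest the Il24 start, 7232 bp from it and nearest the Fcmr transcript, rose in GCB C (7.86 to 23.3 RPPM, 1.44). That nearest Il20, 11.2 kb from its start, fell from 9.87 RPPM in nB C to 0.0867 RPPM in BMPC C (-3.33). That nearest Il19, 5707 bp from its start, fell from 4.17 RPPM in nB C to 0.486 RPPM in BMPC C (-1.81). Mapkapk2, the stress kinase gene downstream of Il10, read 52.5, 58.8 and 54.2 RPPM at its start in nB C, GCB C and BMPC C and was not called. The nearest regions beyond the Il10 set, 40.2 kb upstream and 40.7 kb downstream of its start, were not called between any of the C groups. None of the 48 was called between KO and C by limma, with 0, 6 and 8 passing an unadjusted p under 0.05 in nB, GCB and BMPC; 1 was called in BMPC by edgeR's likelihood ratio test.

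The gene lists that follow were chosen with earlier results of these data known, so the p-values of their genes are descriptions. The genes that receive and carry the IL-10 signal were read at the region nearest each start, for 7 genes (Il10ra, Il10rb, Jak1, Tyk2, Stat3, Socs3, Bcl3). None was called higher and 3 were called lower in GCB C than in nB C, and 1 lower in BMPC C, where 14.2% and 8.47% of all regions were called higher and lower in GCB C and 18% and 20.1% in BMPC C. Il10ra, the ligand-binding receptor chain, fell from 18.6 RPPM in nB C to 4.995 in GCB C (log2 difference -1.69, SE 0.24, limma adjusted p = 2.2e-06) and 7.68 in BMPC C (-1.20, SE 0.21, limma adjusted p = 2.6e-05). Socs3, a feedback inhibitor that Stat3 induces, was lower in GCB C than in nB C (-1.45, SE 0.20, limma adjusted p = 1.1e-06), as was Bcl3, a nuclear partner of NF-κB (-1.13, SE 0.27, limma adjusted p = 0.0014). Both were higher in BMPC C than in GCB C, by 1.31 for Socs3 (limma adjusted p = 3e-06) and 1.46 for Bcl3 (limma adjusted p = 6e-05), and were the 2 of the list called there. In KO, 2 of the list were lower in GCB than in nB, none was called in BMPC against nB, and 1 was higher in BMPC than in GCB.

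Of 10 genes for factors known to act on Il10 transcription (Maf, Nfil3, Prdm1, Irf4, Batf, Bhlhe40, Ets1, Ahr, Creb1, Nfkb1), 1 was called lower in GCB C than in nB C, and 1 higher and 1 lower in BMPC C than in nB C, against the same shares of all regions. Maf, an activator of Il10 in T cells and macrophages, fell from 67.8 RPPM in nB C to 32.8 in GCB C (-1.04, SE 0.20, limma adjusted p = 0.00011) and 10.2 in BMPC C (-2.65, SE 0.18, limma adjusted p = 7.1e-13). Ahr, a ligand-activated factor, rose in BMPC C against nB C by 1.31 (SE 0.12, limma adjusted p = 2.5e-10), and Prdm1, which encodes the plasma cell factor Blimp-1, rose in BMPC C against GCB C by 1.05 (limma adjusted p = 1.3e-06). The region of Maf measured 18.4 RPPM ± 6.7 (SD, n = 2) in BMPC KO against 10.2 ± 3.1 (n = 3) in BMPC C (0.79, limma adjusted p = 0.055), which was not called.

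Of 10 genes that encode inhibitory molecules or cytokines of regulatory B-lineage cells (Lag3, Cd274, Pdcd1lg2, Cd200, Tigit, Havcr1, Ebi3, Il12a, Tgfb1, Il6), 4 were called higher and none lower in BMPC C than in nB C, against 18% and 20.1% of all regions. Pdcd1lg2, a ligand of the inhibitory receptor PD-1, rose from 1.34 to 21.6 RPPM (3.29, limma adjusted p = 2.2e-13). Tigit, an inhibitory receptor, rose from 1.40 to 12.6 RPPM (2.50, limma adjusted p = 8.2e-08). Lag3, an inhibitory receptor that marks IL-10-producing plasma cells, rose from 2.42 to 6.47 RPPM (1.12, limma adjusted p = 0.0023), and Il6, a cytokine that promotes inflammation and plasma cell survival, from 1.22 to 5.08 RPPM (1.52, limma adjusted p = 0.00024). In GCB C against nB C 2 were called higher and 1 lower (14.2% and 8.47% of all regions), and in BMPC C against GCB C 1 and 1 (11.3% and 19.1%). In KO only 2 of the list were called higher, and none lower, in BMPC than in nB (18.4% and 16.9% of all regions). GCB KO against nB KO gave 3 higher and 1 lower (18.4% and 7.84%), and BMPC KO against GCB KO 1 and 1 (12.1% and 19.9%). Between KO and C none of these 3 lists had a called gene by limma, edgeR or DESeq2. At an unadjusted p under 0.05 the counts in nB, GCB and BMPC were 0, 3 and 0 for the receptor list, 0, 0 and 2 for the factors and 0, 2 and 0 for the regulatory list.

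T cells and myeloid cells can make IL-10, so their marker genes were read in the same libraries. Of the T cell list, 4 of 5 genes had a region, and their summed signal was 82.7 to 91.2 RPPM in nB C, 33.4 to 36.5 in GCB C and 68.3 to 74.6 in BMPC C. It was highest in nB C, where the Il10 regions were lowest. The sum rested mainly on Cd3d, its largest part in each group, at 62.3, 13.7 and 41.1 RPPM. Cd3e, part of the T cell receptor complex, was at 3.02 RPPM in nB C, 0.660 in GCB C and 0.538 in BMPC C, whereas Cd4 was at 0.867, 11.3 and 15.9 RPPM, moving with the Il10 regions. Of the myeloid list, 4 of 6 had a region, with sums of 20.2 to 22.5 RPPM in nB C, 20.1 to 22.0 in GCB C, 21.0 to 32.0 in GCB KO and 5.66 to 12.1 in BMPC C. Adgre1, the macrophage antigen F4/80, was at 6.23 RPPM in nB C, 2.49 in GCB C and 0.130 in BMPC C, whereas Cebpa, a myeloid factor, was at 3.78, 10.2 and 4.77 RPPM and was called higher in GCB C than in nB C. The part of these cells in the Il10 values was not tested.

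Likeness to other genes was measured by Pearson's r over the 16 libraries with the region nearest the start of each of 15300 genes, as a description over libraries that share cell type and depth. For the Il10 region nearest its start, 1.1 kb into the gene, the genes most alike were 2810459M11Rik (0.947), Cacng2 (0.941), P3h1 (0.937), Sema3f (0.934) and Cyp2c44 (0.928). For the region with the highest mean over all libraries, 27 kb downstream, they were Tmem158 (0.986), Lgr4 (0.985), Ttc32 (0.982), Amotl2 (0.980) and 3425401B19Rik (0.979).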

How the data were processed

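The authors mapped reads to mm9 and called peaks with MACS2 at q 0.01. The submitters' processing notes name Bowtie 1.1.1, Picard 1.127, MACS2 2.1.0.20140616 and edgeR 3.12.1. The authors merged the peaks of all samples into 66177 regions and deposited RPM values scaled to the reads in all regions, written RPPM here, for 16 of 17 labelled samples. All 1058832 deposited RPM values were whole multiples of the value of 1 read (100% within 0.01 of a read), so reads could be recovered. Deposited columns of the authors' own comparisons (fold changes, p-values, FDR and calls) were not used.

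The main test was limma 3.58.1 with a variance trend on log2(RPPM + 1), with 6 group means and 16 libraries in 1 fit and Benjamini-Hochberg adjustment over all 66177 regions, called at adjusted p of at most 0.01 and a log2 difference of at least 1. edgeR 4.0.16 and DESeq2 1.42.0 on recovered reads, other scalings, pseudocounts and filters, and leaving out each library were alternatives. The fits were tested on simulated data. Replicates differed by more than sampling noise (chi-square per degree of freedom 1.22 to 2.21). Each Il10 region was named by its position; list genes by the region nearest their start where called between C groups or genotypes, at most 4 per list; likeness by the 5 highest r. The Il10 regions, the gene lists and the motifs were chosen with earlier results of these data known. Sequences were read from the NCBIM37 genome, whose chromosomes matched 65893 regions by name and length. Some items of the gene and marker lists are not reported here.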

Additional observations from a re-analysis of the deposited data

How the results depend on the processing

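Counts of called Il10 regions in GCB against nB in C (9 to 11), in BMPC against nB in C (9 to 12) and in BMPC against nB in KO (11 to 14) stayed within 1.5 times the reported 10, 11 and 13 under every alternative run. BMPC against GCB in C, 5 as reported, gave 3 with a pseudocount of 0.1 RPPM, 0 with one of 5 RPPM, and 2 to 5 when 1 library was left out. GCB against nB in KO, 13 as reported, gave 8 with a pseudocount of 5 RPPM and 10 to 13 when 1 library was left out. BMPC against GCB in KO, 5 as reported, gave 3 with either pseudocount and 3 to 6 when 1 library was left out, with 3 without BMPC KO replicate 1 and 3 without replicate 2. On recovered reads, edgeR's quasi-likelihood test called 10, 12 and 5 Il10 regions in C (GCB against nB, BMPC against nB, BMPC against GCB) and 13, 13 and 6 in KO, and DESeq2 called 10, 12, 5, 13, 13 and 6. A larger pseudocount shrinks every log2 difference by construction; the cause of the other changes was not tested. KO against C and the interactions gave 0 in every setting, also with the pool names of GCB as a replicate block (0 called); GCB pools of C and KO share 2 names, whose deviations did not correlate (r = 0.0628), so they were not paired. Of the values of single regions, 4026 moved by less than the replicate spread, 328 moved by more, and no called value changed sign. Many of the 4026 could not move in any case. Leaving out a library of a group not compared does not change a difference of group means. Nor do the limit on adjusted p, the filter or the fit of the 2 groups alone. The 4026 are therefore no measure of how stable the values were. Values near 0 that were not called could change sign, such as GCB against nB in C 20.1 kb upstream (-0.44 to 0.91) and KO against C in BMPC 9.2 kb upstream (-0.03 to 0.09). Quantile normalization moved the split of all regions in GCB against nB from 9427 higher and 5602 lower to 7418 and 7053 in C and from 12205 and 5188 to 7679 and 7477 in KO, and in BMPC against GCB from 7474 and 12636 to 9585 and 9871 in C and from 8013 and 13138 to 10270 and 10345 in KO; the median of all regions moved from 0.05 to -0.06, 0.12 to -0.07, -0.06 to 0.09 and -0.03 to 0.08 in that order. In nB most Il10 regions rest on few reads, so log2 differences from nB depend on the pseudocount: that of GCB against nB in C 4.3 kb upstream ran from 1.01 to 5.29.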
